A study of Mus musculus with 16 samples.

Results

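The 14-3-3 family was followed through 16 RNA libraries of mouse cortical neurons that had met α-synuclein fibrils, microglia, both or neither. Its members were taken by symbol, as the genes Ywhab, Ywhae, Ywhag, Ywhah, Ywhaq and Ywhaz (the β, ε, γ, η, θ and ζ isoforms), which made 6 of the 16934 genes in the count table. The rule uses symbols only, though the family was picked for study with earlier results of these data known. All 6 passed the filter on low counts. Neurons came from C57BL/6 embryos of day 15 to 16 and grew for 14 days, and every library was made from the poly(A) end of the RNA, so that a count stands for a transcript's 3′ end.

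There were 4 groups of 4 libraries each, numbered as replicates 1 to 4. Untreated neurons alone met neither fibrils nor microglia. Loaded neurons alone were given 0.1 µM α-synuclein fibrils labelled with the dye Atto488 for 16 h, were rinsed in PBS and were then kept by themselves for 6 h. Untreated neurons with microglia had no fibrils and shared the dish with microglia for 6 h. Loaded neurons with microglia had the same fibrils and rinse, followed by 6 h with microglia. The labels name the sample as neurons. They leave unsaid whether and how microglia were removed before RNA isolation, where the microglia came from, or whether libraries of a group came from separate cultures or animals. The p-values therefore weigh differences only against the scatter among these libraries, and that scatter may be technical.

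14-3-3 proteins are dimeric adaptors that bind partner proteins at phosphorylated serine or threonine, and so hold kinases, transcription factors and channels in place, in the cytosol or in an inactive shape. They are among the most abundant soluble proteins of the brain. They bind α-synuclein and LRRK2, are found in Lewy bodies, and are used as a marker of neuronal damage in cerebrospinal fluid. Isoforms form mixed dimers, so that the make-up of the pool as well as its size is a property of the cell.

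Library totals were 6511516 to 13986374 counts, with 10817 to 13079 genes detected and 9.35% to 26.8% of counts on the ribosomal RNA gene Rn45s. The 6 genes together took 17005 to 47342 counts per library, or 0.218% to 0.388% of the total. The lowest single value was 357 counts, for Ywhah, and the highest was 15000, for Ywhae. Counting error would be small at such values if each read were a separate molecule. PCR copies were counted too, so its true size is not known. The spread between libraries, as edgeR's biological coefficient of variation, was 0.336 to 0.48 for the 6 genes, against a median of 0.928 over all genes tested. That median was not matched for level, and the 6 genes ranked 40 to 1628 of 13139 by mean level. Libraries differed in other ways too: each lacked any count for 41 to 666 genes whose mean in the remaining libraries was at least 100. The first library of each co-culture group held far more microglial transcript than the rest, and the main results are given with and without them.

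The genes lie apart in the genome and their 3′ ends could be told apart. In the GENCODE M21 annotation of GRCm38, the assembly also called mm10, Ywhag lies at chr5:135908409-135934616 on the minus strand and Ywhah at chr5:33018816-33027966 on the plus strand, each with 2 exons. Ywhae lies at chr11:75732869-75765845 and Ywhab at chr2:163994960-164018588, both on the plus strand with 6 exons. Ywhaq lies at chr12:21390071-21417637 with 6 exons and Ywhaz at chr15:36770770-36796929 with 7, both on the minus strand. Identity between coding sequences ran from 64.4% (Ywhae and Ywhag) to 79.0% (Ywhag and Ywhah). Of the 451 words of 50 bases in the last 500 bases of each member's transcript, 0 occurred in a transcript of another gene, and no other annotated gene overlapped a member's last exon.

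Ywhag and Ywhah, the pair most alike in coding sequence, had log2 levels that correlated at a Pearson r of 0.846 over the 16 libraries, as a description. Likeness in sequence and in level did not go together throughout: Ywhag and Ywhaz, at 69.3% identity, correlated at 0.905. Their 250 bases before the RefSeq start (GRCm38.p6, 5′ to 3′ on the gene's strand) are shown because both hold TGACGT or its reverse complement ACGTCA, the core of the cAMP response element, given in capitals. The motif was chosen after the sequences had been read.
Ywhag, chr5:135934642-135934891, minus strand: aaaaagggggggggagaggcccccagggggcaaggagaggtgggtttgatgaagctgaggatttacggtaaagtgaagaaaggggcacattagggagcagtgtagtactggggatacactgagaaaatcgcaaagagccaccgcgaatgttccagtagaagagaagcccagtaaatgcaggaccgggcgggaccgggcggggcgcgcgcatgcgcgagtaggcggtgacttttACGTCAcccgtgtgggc
Ywhah, chr5:33018566-33018815, plus strand: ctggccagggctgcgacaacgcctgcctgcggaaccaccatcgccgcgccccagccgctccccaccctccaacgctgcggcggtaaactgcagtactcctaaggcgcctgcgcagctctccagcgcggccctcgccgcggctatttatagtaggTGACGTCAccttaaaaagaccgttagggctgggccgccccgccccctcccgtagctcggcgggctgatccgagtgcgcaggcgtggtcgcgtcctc
In the Ywhag window the letters begin 17 bases before the start. In the Ywhah window they form TGACGTCA, which reads the same on both strands and gives 2 overlapping matches, the nearer of them beginning 94 bases before the start. Of 32851 RefSeq promoter windows of the same length, searched on both strands, 6.47% held TGACGT. The RefSeq table held 4 of the 6 members, and the windows of Ywhae and Ywhaq did not have these letters. Of the 250 bases in each window, 201 lay inside the annotated GENCODE gene for Ywhaq and 18 for Ywhae. For Ywhag and Ywhah 0 did, so the Ywhaq window cannot be compared like for like. A match is only a run of letters, and no binding was measured.

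Ywhae was the most abundant member in every group by mean level, and Ywhah or Ywhaq the least. Levels are in CPM, the count set against the library's total and scaled between libraries by TMM. Because each transcript gives counts from its 3′ end, they were not divided by gene length, though capture may differ between genes. Among the 13139 genes tested, ordered by mean log2 CPM, Ywhae stood at rank 40, Ywhab at 117, Ywhaz at 237, Ywhag at 358, Ywhaq at 816 and Ywhah at 1628. In untreated neurons alone the means ran from Ywhae at 887 ± 193 CPM (SD, n = 4), through Ywhab at 748 ± 145, Ywhaz at 689 ± 64.4, Ywhag at 595 ± 119 and Ywhah at 251 ± 104, to Ywhaq at 163 ± 24.6. Neighbours in that order overlapped in their libraries except Ywhag and Ywhah.

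**Figure D1:**
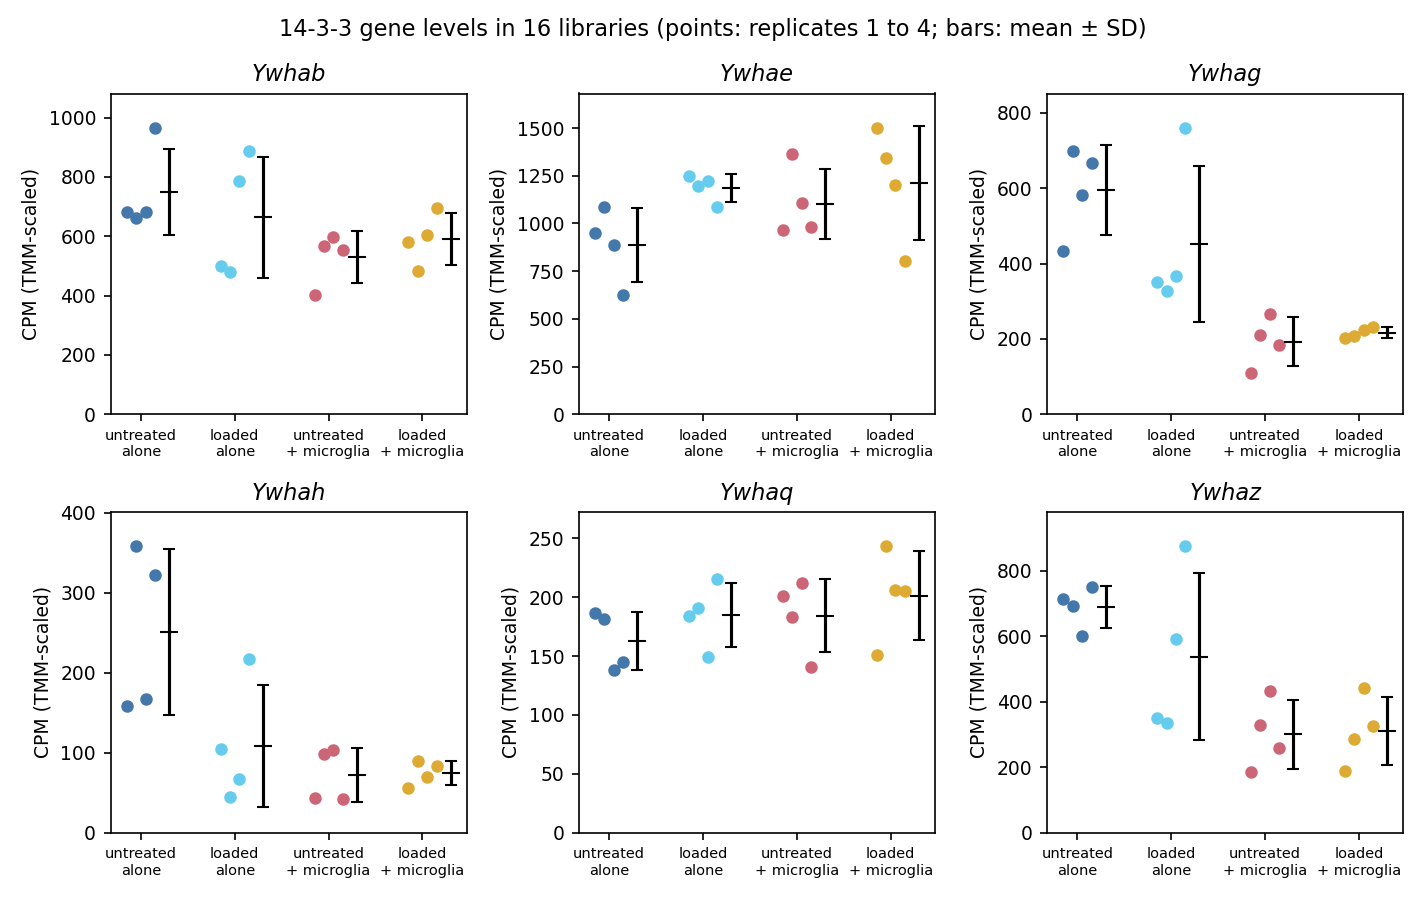
Level of each 14-3-3 gene in CPM (y axis, linear from 0) in the 4 groups (x axis). Points are libraries, replicates 1 to 4 from left to right, and bars are mean ± SD. All 8 co-culture libraries lie at or under 266 CPM for Ywhag and all 8 libraries of neurons alone lie above it.

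The question of the first comparison was how neurons differ after 6 h with microglia. Ywhag, which encodes the γ isoform, enriched in neurons and mutated in a childhood epilepsy syndrome, fell. Ywhaz, which encodes the ζ isoform, a partner of tyrosine hydroxylase and RAF kinases, fell when the comparisons without and with fibrils were averaged. Ywhah, for the η isoform, had estimates of a like size without fibrils and averaged, but a smaller one in loaded neurons, and missed the threshold. Ywhae, Ywhaq and Ywhab did not pass, and ratios between genes, given further on, showed that the family did not shift as one.

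Ywhag stood at 433, 699, 581 and 666 CPM in untreated neurons alone and at 109.5, 209.8, 266 and 183 CPM in untreated neurons with microglia. In loaded neurons it stood at 350.5, 328, 368 and 760.0 CPM alone and at 203, 209, 223 and 232 CPM with microglia. Every co-culture library was lower than every library of neurons alone, 8 against 8, a separation that 0.221% of tested genes showed in that direction. Ywhag was 3.1-fold lower with microglia in untreated neurons (log2 change -1.63 ± 0.33 SE, edgeR quasi-likelihood adjusted p 0.0407). Averaged over fibril state it was 2.54-fold lower (-1.34 ± 0.23, adjusted p 0.00293). In loaded neurons the estimate was -1.06 ± 0.32 and did not pass (edgeR adjusted p 0.201), with no overlap between the groups. Without replicate 4 of loaded neurons alone, the library at 760.0 CPM, that estimate was -0.68 (adjusted p 0.419).

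The averaged fall of Ywhag passed with any 1 library left out (edgeR adjusted p 0.00186 to 0.00991). The call in untreated neurons was less stable: it passed without replicate 1 of untreated neurons alone, replicate 1, 2 or 4 of loaded neurons alone, replicate 3 of untreated neurons with microglia or replicate 1 of loaded neurons with microglia, and was lost without any of the other 10 (log2 change -1.83 to -1.44, adjusted p 0.0179 to 0.214). It was also lost with library totals as scaling (-1.44, adjusted p 0.0634) and in a fit of only the groups compared (-1.59, adjusted p 0.0846).

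Ywhaz stood at 714, 692, 600.1 and 751 CPM in untreated neurons alone and at 186, 328, 432 and 259 CPM in untreated neurons with microglia. In loaded neurons it stood at 350.1, 334, 594 and 875 CPM alone and at 190.2, 286, 444 and 326 CPM with microglia. The untreated groups were apart and the loaded groups overlapped, since replicates 1 and 2 of loaded neurons alone lay under replicate 3 of loaded neurons with microglia. Averaged over fibril state Ywhaz was 1.99-fold lower with microglia (log2 change -0.99 ± 0.24, edgeR adjusted p 0.0309). On their own, the estimates were -1.19 ± 0.34 without fibrils (adjusted p 0.233) and -0.79 ± 0.34 with them (adjusted p 0.375). The averaged call was lost without replicate 2 or 4 of untreated neurons alone, 3 or 4 of loaded neurons alone, 1, 2 or 4 of untreated neurons with microglia, or 1 or 2 of loaded neurons with microglia (log2 change -1.11 to -0.82, adjusted p 0.0191 to 0.0719). It was also lost with library totals as scaling (-0.79, adjusted p 0.0815). Without fibrils, DESeq2 called Ywhaz (adjusted p 0.0177), beside 2.25% of tested genes.

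Ywhah, whose product binds the ubiquitin ligase parkin, stood at 158, 358, 167 and 322 CPM in untreated neurons alone and at 43.5, 98.1, 104 and 42.7 CPM in untreated neurons with microglia. In loaded neurons it stood at 104, 44.6, 67.7 and 217 CPM alone and at 56.3, 90.3, 69.3 and 83.4 CPM with microglia. Untreated neurons alone lay above all the co-culture libraries, while loaded neurons alone spread over both ranges. The estimates were -1.80 ± 0.46 without fibrils (edgeR adjusted p 0.130) and -1.17 ± 0.32 averaged over fibril state (adjusted p 0.0535), and neither passed. Both passed with DESeq2 (adjusted p 0.00982 and 0.0106) and limma-voom (0.0372 and 0.0459). DESeq2 called 2.25% and 8.33% of tested genes in these comparisons, and limma-voom 0.578% and 4.96%. In loaded neurons the estimate was -0.53 ± 0.45 (edgeR adjusted p 0.768). The averaged value passed without replicate 1 of untreated neurons alone (adjusted p 0.0371), replicate 2 of loaded neurons alone (0.0252) or replicate 3 of untreated neurons with microglia (0.0499).

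Ywhab, for the β isoform, a RAF partner like ζ, stood at 682, 661, 683 and 965 CPM in untreated neurons alone and at 402, 567, 599 and 553 CPM in untreated neurons with microglia. In loaded neurons it stood at 498, 480.4, 787 and 887 CPM alone and at 581, 482, 603 and 694 CPM with microglia. The untreated groups were apart by a narrow gap and the loaded groups overlapped. The averaged estimate was -0.33 ± 0.19 (edgeR adjusted p 0.406).

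Ywhae, for the ε isoform, which binds the dynein regulator NDEL1 and is lost in the Miller-Dieker deletion, stood at 949.9, 1086, 888 and 625 CPM in untreated neurons alone and at 964, 1362, 1106 and 983 CPM in untreated neurons with microglia. In loaded neurons it stood at 1249, 1195, 1220.2 and 1084 CPM alone and at 1501, 1342, 1199 and 805 CPM with microglia. The groups overlapped in both comparisons, and the averaged estimate was 0.17 ± 0.18 (edgeR adjusted p 0.732). Ywhaq, for the θ isoform, stood at 187, 181, 138 and 145 CPM in untreated neurons alone, at 184, 191, 149 and 216 CPM in loaded neurons alone, at 201, 183, 212 and 141 CPM in untreated neurons with microglia and at 151, 243, 206 and 205 CPM in loaded neurons with microglia. Its averaged estimate was 0.15 ± 0.20 (edgeR adjusted p 0.802), and its 4 groups overlapped throughout.

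Counted over the family, 1 of 6 members was called with microglia in untreated neurons, where 0.122% of tested genes were called, and 4 of 6 (Ywhab, Ywhag, Ywhah and Ywhaz) did not overlap and were lower, against 3.81% of tested genes. In loaded neurons 0 of 6 were called, where 0.114% of tested genes were, and 1 (Ywhag) did not overlap and was lower, against 2.91%. There 2 members had an unadjusted edgeR p under 0.05, as did 11.7% of tested genes. DESeq2 called 1 (Ywhag, adjusted p 0.0238) and 3.74% of tested genes, and limma-voom called 0 members. Averaged over fibril state 2 of 6 were called, where 2.19% of tested genes were. The family's median log2 change was -0.85, -0.35 and -0.66 in the 3 comparisons, against -0.02, -0.03 and -0.03 over all genes tested, and in each 4 members had negative estimates and 2 positive.

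**Figure D2:**
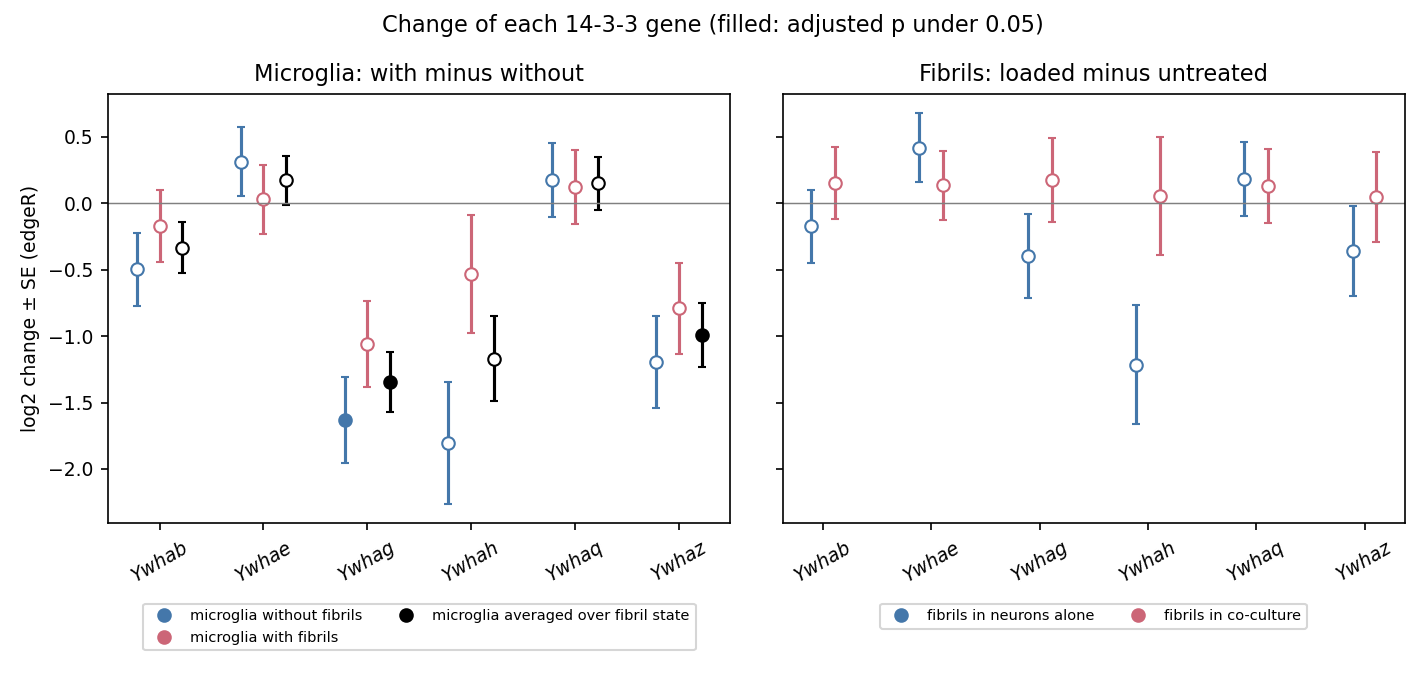
Log2 change ± SE (y axis, edgeR) of each 14-3-3 gene (x axis), with minus without microglia on the left and loaded minus untreated on the right. Filled points passed an adjusted p under 0.05: Ywhag without fibrils and averaged, and Ywhaz averaged.

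The pool of 14-3-3 transcripts had another make-up in co-culture. The summed level of the 6 genes was 3334 ± 294 CPM (SD, n = 4) in untreated neurons alone, 3133 ± 657 in loaded neurons alone, 2383 ± 417 in untreated neurons with microglia and 2606 ± 178 in loaded neurons with microglia. Ywhae made up 26.7% ± 5.86 of that sum in untreated neurons alone, 39.3% ± 9.09 in loaded neurons alone, and 46.6% ± 4.49 and 46.1% ± 9.35 in the co-cultures without and with fibrils. Ywhag made up 17.8% ± 2.60, 14.0% ± 3.28, 7.91% ± 1.69 and 8.37% ± 1.05 in the same order. The Ywhab share stayed between 20.9% ± 3.04 and 22.8% ± 4.81 in all 4 groups. Shares sum to a whole, so a lower share of some members raises that of the others, and they are a description.

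**Figure D3:**
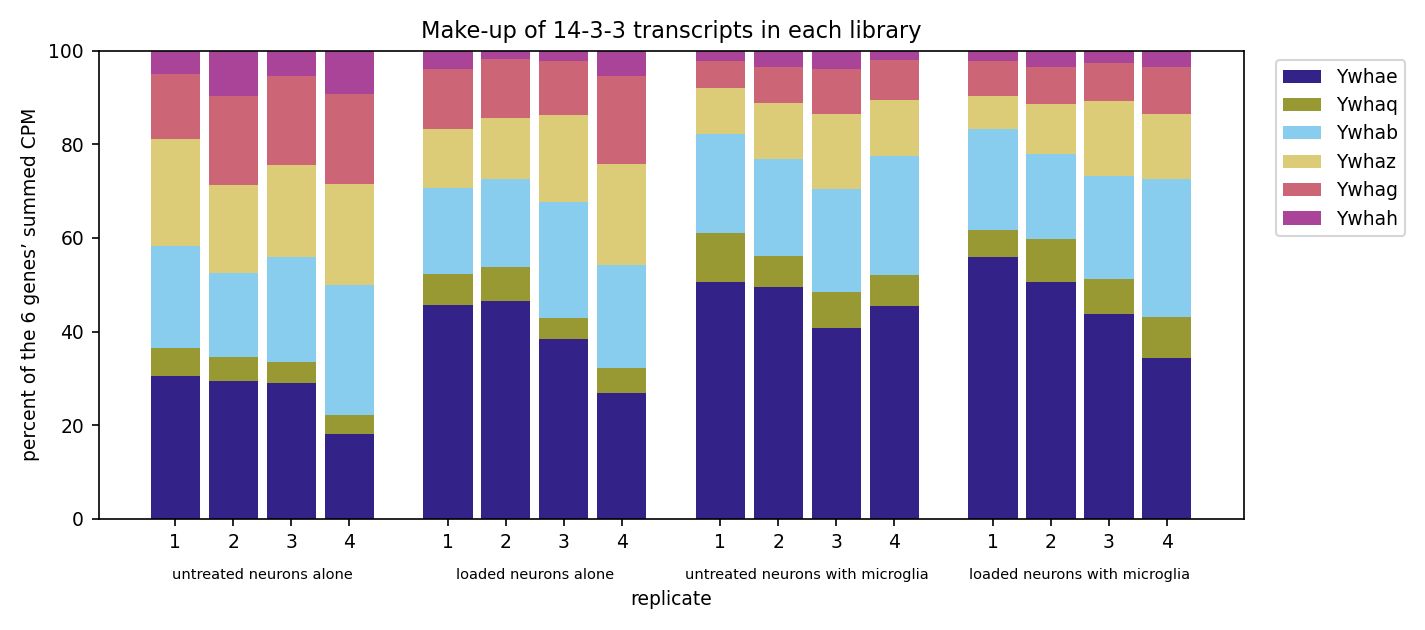
Percent of the 6 genes' summed CPM (y axis) taken by each gene in every library (x axis, 4 replicates in each group). Ywhag takes 17.8% on average in untreated neurons alone and 7.91% and 8.37% in the co-cultures.

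Ratios between members do not depend on the scaling between libraries, so they were used to test whether the members moved together. Each of the 15 pairs was compared with and without microglia by a two-sided exact permutation test that kept fibril state fixed, with 4900 arrangements, a smallest possible p of 0.000408 and adjustment over the 15 pairs. With microglia, 8 of 15 ratios differed at an adjusted p under 0.05. The log2 ratio of Ywhag to Ywhaq ran from 0.78 to 2.20 in the 8 libraries without microglia and from -0.88 to 0.43 in the 8 with them, with no overlap. The mean difference was -1.47 (exact permutation p 0.000408, the smallest the test can give, adjusted p 0.00306). The ratio of Ywhab to Ywhag was also apart in all libraries, with a range of -0.08 to 1.1 without microglia and 1.17 to 1.88 with them, and a difference of 1.01 with the same p. Ywhae to Ywhag differed by 1.48 (exact permutation adjusted p 0.0046).

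Ywhaz differed from the same 3 genes. Against Ywhaz, Ywhab was higher by 0.69 in log2 ratio (exact permutation adjusted p 0.0046), Ywhaq by 1.14 (0.0049) and Ywhae by 1.16 (0.0122). Ywhah differed from Ywhaq by -1.21 (exact permutation adjusted p 0.0166), and Ywhae from Ywhah by 1.23 (0.0352). That last call was lost without replicate 2 or 4 of untreated neurons alone, 1 or 4 of loaded neurons alone, 1, 2 or 4 of untreated neurons with microglia, or 1 or 3 of loaded neurons with microglia. Among Ywhag, Ywhah and Ywhaz the differences were -0.25 (Ywhag to Ywhah, exact permutation adjusted p 0.336), -0.07 (Ywhah to Ywhaz, 0.873) and -0.32 (Ywhag to Ywhaz, 0.0857). Between Ywhae and Ywhaq the difference was 0.02 (0.923). A ratio that missed the threshold does not show that both genes moved alike.

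**Figure D4:**
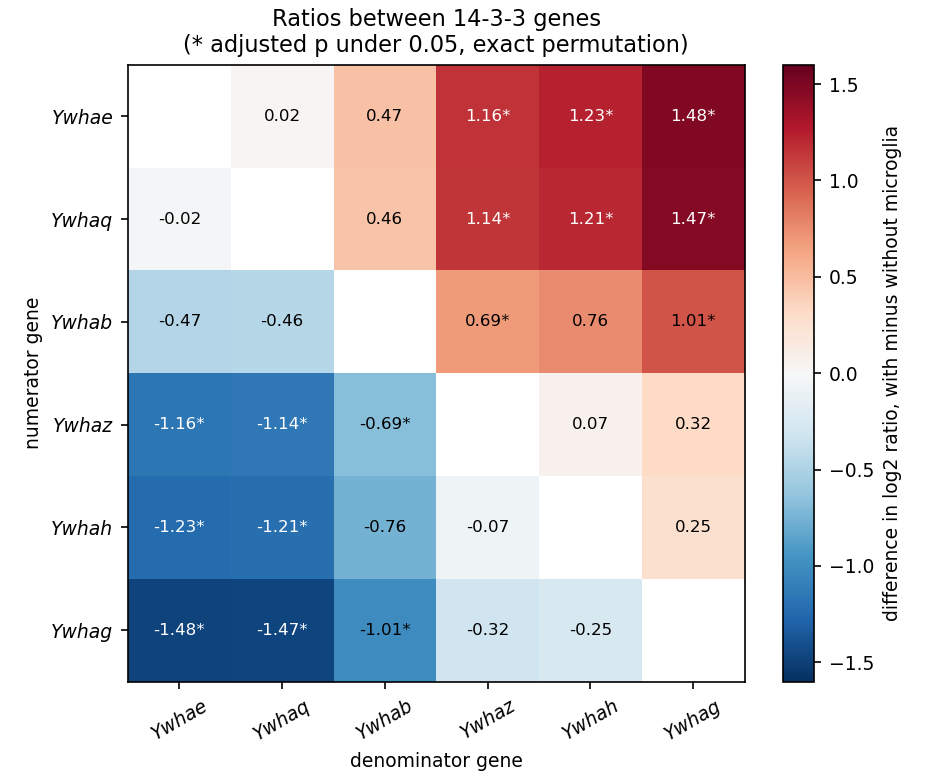
Difference in log2 ratio, with minus without microglia, of each numerator gene (rows) to each denominator gene (columns), averaged over fibril state. Stars mark the 8 pairs with an adjusted p under 0.05, all between Ywhae, Ywhaq or Ywhab on one side and Ywhag, Ywhah or Ywhaz on the other.

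Cell type markers also differed between these groups. The summed CPM of 12 neuronal markers, all measured and none at 0 in any group, was 3213 to 7351 in untreated neurons alone, 1497 to 7503 in loaded neurons alone, 1169 to 2934 in untreated neurons with microglia and 1398 to 2093 in loaded neurons with microglia. Averaged over fibril state, 10 of the 12 had negative estimates and 2 positive. Of the 12, 2 were called lower, where 2.19% of tested genes were called in either direction. They were Thy1, a neuronal surface glycoprotein (log2 change -2.43, edgeR adjusted p 0.000152), and the neuronal tubulin Tubb3 (-1.64, adjusted p 0.0132). The 12 markers of the oligodendrocyte lineage summed to 1087 to 2069, 1479 to 3023, 3958 to 7788 and 5908 to 9584 CPM in the same order of groups, and 10 of 12 were called higher averaged over fibril state. The 7 markers of dividing cells, none at 0 in any group, summed to 207 to 503, 203 to 826, 1154 to 1680 and 460 to 1189 CPM, and 4 of 7 were called higher in the same comparison. The 12 microglial markers summed to 8.0 to 27.8, 4.92 to 41.0, 11.4 to 601 and 16.9 to 1209 CPM, with P2ry12 and Tmem119 at 0 in all libraries, and 0 of the 10 tested were called. The 8 astrocyte markers summed to 2129 to 6558, 3167 to 7380, 1302 to 6284 and 897 to 3413 CPM in the same order. Of these 8, 0 were called averaged over fibril state. The part of all these markers in the results on Ywhag and Ywhaz was not tested. In bulk RNA, fewer neurons, less RNA per neuron and more RNA from other cells cannot be told apart.

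Each member was also set against the neuronal sum. On the log2 scale the same sum is subtracted from every member in a library. Differences between members therefore come from the same values as the ratios above and are not a second result. Between untreated neurons alone and untreated neurons with microglia, the mean log2 ratio of Ywhag to the neuronal sum went from -3.27 ± 0.26 to -3.40 ± 0.50 (SD, n = 4), that of Ywhah from -4.59 ± 0.44 to -4.87 ± 0.14 and that of Ywhaz from -3.04 ± 0.58 to -2.75 ± 0.40. Each of these 3 shifts was smaller than the larger of its SDs. The ratio of Ywhae went from -2.70 ± 0.74 to -0.82 ± 0.50, that of Ywhab from -2.93 ± 0.50 to -1.88 ± 0.57 and that of Ywhaq from -5.13 ± 0.70 to -3.41 ± 0.52, each by more than either SD. In loaded neurons no member shifted by more than the larger of its SDs. Ywhae went from -1.30 ± 1.14 alone to -0.55 ± 0.57 with microglia, Ywhab from -2.20 ± 0.64 to -1.56 ± 0.16 and Ywhaq from -4.00 ± 1.04 to -3.12 ± 0.41. Ywhag went from -2.79 ± 0.61 to -2.99 ± 0.20, Ywhah from -5.01 ± 0.69 to -4.55 ± 0.43 and Ywhaz from -2.56 ± 0.41 to -2.53 ± 0.38. These SDs hold the spread of the shared neuronal sum, so they cannot show whether members differed from each other. These ratios were not tested. Loaded neurons alone held libraries at both ends: replicates 1 and 2 had neuronal sums of 1769 and 1497 CPM, within the co-culture range, with Ywhag at 350.5 and 328 CPM, above all co-culture libraries. Replicate 4 had a neuronal sum of 7503 CPM, above all other libraries, and the highest Ywhag and Ywhaz of the study.

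**Figure D5:**
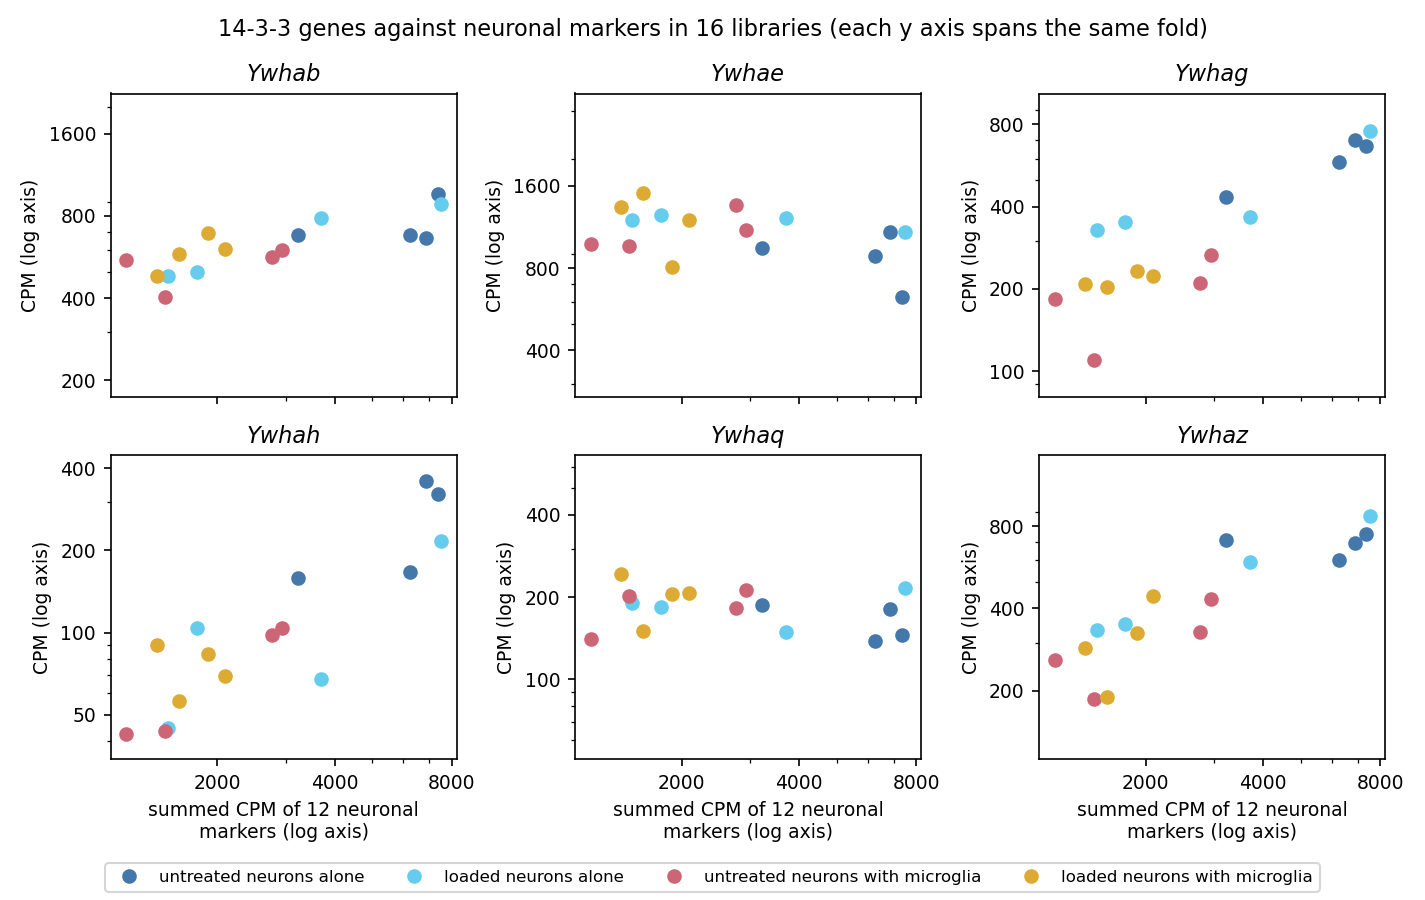
CPM of each 14-3-3 gene (y axis, log) against the summed CPM of 12 neuronal markers (x axis, log) in the 16 libraries, coloured by group. Ywhag, Ywhah and Ywhaz are high in the libraries with high neuronal sums, and Ywhae is not. Ywhaq is not either, except at 216 CPM in the library with the highest sum, 7503 CPM. Ywhab is highest, at 965 and 887 CPM, in the libraries with sums of 7351 and 7503 CPM.

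The first replicate of each co-culture group had microglial sums of 601 and 1209 CPM, against 11.4 to 69.8 in the other 6 co-culture libraries. Without both of them, in a comparison added after the data had been seen, the averaged fall of Ywhag still passed (log2 change -1.23, edgeR adjusted p 0.0144). Ywhaz no longer passed (-0.82, adjusted p 0.113), nor did Ywhag in untreated neurons (-1.43, adjusted p 0.172). The 8 ratios kept their calls by the exact permutation test except Ywhae to Ywhah (1.04, adjusted p 0.103), and Ywhag to Ywhaz passed as well (-0.40, adjusted p 0.0490). That ratio also passed without replicate 1 of untreated neurons alone, replicate 3 of loaded neurons alone or replicate 1 of loaded neurons with microglia.

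The second question was what fibrils do to the family, with and without microglia. No member passed. In neurons alone 0 of 6 were called, as were 0% of tested genes, and edgeR gave 1 member an unadjusted p under 0.05, as it did 6.92% of tested genes. DESeq2, limma-voom and limma on the normalized values called 0 members too. That member was Ywhah, at 251 ± 104 CPM (SD, n = 4) untreated and 108 ± 76.3 CPM loaded, with a log2 change of -1.21 ± 0.45 (edgeR p 0.0129, adjusted p 0.695). The groups overlapped, since the loaded replicate 4, at 217 CPM, lay above untreated replicates 1 and 3. Ywhae was estimated at 0.42 ± 0.26 and Ywhag at -0.40 ± 0.32 (edgeR adjusted p 0.889 and 1.00). All 4 loaded libraries of Ywhae were at 1084 CPM or more and 3 of the 4 untreated ones were at 949.9 CPM or less, with the highest untreated library at 1086 CPM. No member separated the groups, where 2.22% of tested genes did so downward and 1.96% upward.

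In co-culture the fibril estimates of all 6 members lay between 0.05 and 0.17 on the log2 scale, all with an edgeR adjusted p of 1.00 and 0 with an unadjusted p under 0.05, and 0% of tested genes were called. All 6 overlapped, against 1.04% of tested genes apart downward and 0.906% upward. The interaction, which asks whether the effect of fibrils differs with microglia, was largest for Ywhah at 1.27 ± 0.63 (edgeR p 0.0561, adjusted p 1.00) and 0 members passed. The fibril and microglia comparisons share libraries, so the low Ywhah in loaded neurons alone enters both. Of the 15 ratios between members, 0 differed with fibrils (lowest exact permutation p 0.0535, adjusted p 0.353).

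Genes with levels most like each member over the 16 libraries were taken by Pearson correlation of log2 CPM among 6362 well expressed genes, as a description, since the libraries share their groups, depth and cell make-up. For Ywhag they were Nrgn, a postsynaptic calmodulin-binding protein (r 0.923), Ppp3ca, the catalytic subunit of calcineurin (0.922), and Cdk5r2, an activator of CDK5 (0.906). For Ywhaz they were the sodium pump subunit Atp1b1 (0.944), the ubiquitin ligase subunit Fbxw7 (0.929) and the transcription factor Mef2c (0.927). For Ywhah they were the reticulon Rtn3 (0.938), the calmodulin gene Calm2 (0.915) and the chaperone Dnajb6 (0.913).

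Genes with levels like those of Ywhab included Prkacb, a catalytic subunit of protein kinase A (r 0.880), and the DNA methyltransferase Dnmt3a (0.877). The other members had weaker likenesses: Ywhae was closest to Ccdc88c (0.834), Jmjd1c (0.822) and Prmt1 (0.806), and Ywhaq to Abcc1 (0.801), Rbx1 (0.770) and Eif2s1 (0.766). Among the members themselves, Ywhag and Ywhaz were at r 0.905, and Ywhaz ranked 4 of 6361 genes by likeness to Ywhag. Ywhab was at 0.807 with Ywhaz and 0.753 with Ywhag. Ywhae was at -0.488 with Ywhab, -0.343 with Ywhag and 0.266 with Ywhaq, its highest value with another member.

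Proteins that 14-3-3 binds, and the kinases that make its binding sites, were followed as lists. Of 45 partner genes 41 were tested, and edgeR called 0 in each of the 6 comparisons, with 1 to 3 at an unadjusted p under 0.05. Over all tested genes the share at that p was 3.68% to 16.5%. Among the alternatives, limma-voom called 1 partner lower with microglia averaged over fibril state, the ubiquitin ligase Nedd4l (log2 change -1.87, adjusted p 0.0305), named here after its value was seen. It called 4.96% of all tested genes in that comparison. EdgeR called Nedd4l too without both microglia-rich libraries, in loaded neurons (-2.30, adjusted p 0.0319) and averaged (-1.27, adjusted p 0.0320). DESeq2 called 1, Kif1c, described next, with fibrils in neurons alone, where it called 1.32% of all tested genes. The partners' median log2 change with microglia was -0.26 without fibrils and -0.08 with them. The most abundant were Kif1c, a kinesin motor, and Irs2, an insulin receptor substrate. Kif1c stood at 132 ± 46.9 CPM (SD, n = 4) in untreated neurons alone and 372 ± 171 CPM in loaded neurons alone, a log2 change of 1.5 ± 0.40 that did not pass (edgeR adjusted p 0.532) and that DESeq2 called (adjusted p 0.0364). With microglia it stood at 171 CPM untreated and 164 CPM loaded on average. Irs2 had means of 134 to 170 CPM over the 4 groups.

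Of 26 kinases, all tested, 1 was called, in the microglia comparison averaged over fibril state, beside 2.19% of tested genes. It was Camk2a, the α subunit of the calcium/calmodulin-dependent kinase II of excitatory neurons, with means of 1094, 619, 278 and 116 CPM in the 4 groups in the order used above (log2 change -2.19 ± 0.53, edgeR adjusted p 0.0450). The call was lost with library totals as scaling, without the filter on low counts and without both microglia-rich libraries. It was kept without replicate 2 of loaded neurons alone, replicate 2 of untreated neurons with microglia or replicate 4 of loaded neurons with microglia, and lost without any of the other 13 (adjusted p 0.0166 to 0.100). In the same comparison DESeq2 called Camk2a, Camk1d, Camk2b and Prkacb lower, and limma-voom Camk2a and Camk1d, names taken after their values were seen. Of all tested genes, DESeq2 called 8.33% there and limma-voom 4.96%, in either direction. Summed excitatory neuron markers ran from 5819 to 8686 CPM in untreated neurons alone and from 217 to 2012 CPM in untreated neurons with microglia. That list holds Camk2a itself, and also Nrgn, at a mean of 5499 CPM in untreated neurons alone. The sum is therefore not a separate measure, and the part of these markers in the fall of Camk2a was not tested.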

How the data were processed

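The deposited values cover 16 libraries of QuantSeq forward 3′ mRNA sequencing, 4 in each of 4 groups taken from the treatment label. Reads were aligned with STAR to mm10 and handled in Partek and DESeq2, per the submitters' processing notes; versions, counting tool, strand setting and annotation are not given in the sources used here. One table the authors deposited holds raw gene counts without normalization. The other deposited table holds a score, the normalized value as a whole number, and 99.97% of entries lay within 0.6 of the count times a constant per library. PCR copies are counted as if they were separate molecules, which makes counting error too small.

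The counts were fitted with edgeR 4.0.16 (R 4.3.3). Its filterByExpr (minimum count 10, minimum total 15) kept 13139 of 16934 genes, with TMM scaling and a single quasi-likelihood fit, robust to outlying genes, over all 16 libraries. Calls needed an adjusted p under 0.05 (Benjamini-Hochberg over all tested genes). Log2 CPM used a prior count of 2. Ratios between members were compared in Python 3.11.15 by exact permutation within fibril state. Alternatives were library totals or DESeq2 size factors as scaling, no Rn45s, no filter, DESeq2 1.42.0, limma-voom and limma 3.58.1 on the normalized values, only the groups compared, a replicate block and each library left out. The code was tested on simulated data. The members and lists were chosen with earlier results of these data known. The text names all members, the 3 genes most correlated with each among named genes with a mean log2 CPM of at least 4, and called genes of the partner and kinase lists or, with none called, the 2 most abundant; 1 gene that this rule names is not reported here.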

Additional observations from a re-analysis of the deposited data

Results flagged for a closer look

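Among the 24 sets of 4 libraries (6 members in 4 groups), 2 held a library far from the other 3, where chance alone gives about 1 in 20. Ywhab in replicate 4 of untreated neurons alone was at 965 CPM, with the next library at 683 CPM and the lowest at 661 CPM. Ywhag in replicate 4 of loaded neurons alone was at 760.0 CPM, with the next at 368 CPM and the lowest at 328 CPM. The second of these libraries also had the highest neuronal marker sum of the study, 7503 CPM.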

How the results depend on the processing

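The averaged fall of Ywhag passed under all alternatives that were run. The 8 ratios called with microglia became 7 to 10 with 1 library left out. For untreated neurons, the number of members called lower with microglia was 1, and became 0 with library totals as scaling, 0 with only the groups compared and 0 without both microglia-rich libraries (chosen after seeing the data), 3 with DESeq2 and 2 with limma-voom. The calls over all tested genes rose too, from 0.122% in the main fit to 2.25% with DESeq2 and 0.578% with limma-voom. In loaded neurons the number of members was 0 and became 1 with DESeq2, which called 3.74% of tested genes there. Averaged, the number of members was 2 and became 1 with library totals and 1 without both microglia-rich libraries. Leaving out 1 library gave 0 to 1 in untreated neurons and 1 to 3 averaged. The averaged Ywhah value passed with DESeq2 size factors, no filter, DESeq2 and limma-voom. The cause of these shifts was not tested.

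Estimates that turned sign were all uncalled, and were near 0 in the main fit except Ywhah with microglia in loaded neurons (-0.53). With library totals they were Ywhab with microglia in loaded neurons (0.037) and Ywhaz with fibrils in co-culture (-0.011). Ywhae with microglia in loaded neurons was -0.0063 with limma-voom, -0.017 with limma on normalized values, -0.0018 with the replicate block and -0.091 without both microglia-rich libraries. Without those libraries Ywhae (-0.056) and Ywhah (-0.019) with fibrils in co-culture, the Ywhaq interaction (0.095), the ratio of Ywhae to Ywhaq with microglia (-0.052) and with fibrils (-0.052), and that of Ywhag to Ywhaz with fibrils (-0.014) also turned. Leaving out 1 library gave, with microglia in loaded neurons, -0.29 to 0.0044 for Ywhab, -0.091 to 0.18 for Ywhae and -0.78 to 0.054 for Ywhah. With fibrils in co-culture it gave -0.019 to 0.37 for Ywhag, -0.13 to 0.28 for Ywhah and -0.17 to 0.27 for Ywhaz. It gave -0.16 to 0.048 for the Ywhaq interaction, and with microglia -0.11 to 0.12 for Ywhae to Ywhaq and -0.18 to 0.048 for Ywhah to Ywhaz.

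Over all genes, 16, 15 and 288 were called with microglia (without fibrils, with them, averaged). DESeq2 called 295, 492 and 1094, limma-voom 76, 41 and 652, library totals 35, 31 and 422, no filter 26, 26 and 289, the limma fit of normalized values 39, 25 and 431, and the fit without both microglia-rich libraries 0, 17 and 152. The fit of only the groups compared called 1 and 0, and was not run for the average and the interaction. Leaving out 1 library gave 0 to 39, 1 to 27 and 158 to 333. Library totals moved the median of all genes in the averaged comparison from -0.03 to 0.18, and the split of calls from 160 higher and 128 lower to 339 and 83. For fibrils in neurons alone and in co-culture and for the interaction, DESeq2 called 173, 130 and 187 genes, against 0 each.

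The replicate numbers follow runs of library codes and are not stated to pair libraries. Deviations of same-numbered libraries correlated at -0.11 to 0.22, with 4 of 24 pairs over 0.1. Their median was 0.043, against -0.013 (range -0.23 to 0.16) for libraries of different numbers. As not every same-numbered pair was over 0.1, the numbers were not taken as pairs. Even so, 10 of 16 libraries were closest to their own number, a hint of pairing from the data and not the design. With the replicate block, members called stayed at 1, 0 and 2, and genes called were 38, 42 and 366.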

Other observations

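Sfn, the gene of the σ isoform, which is known mainly from epithelia, was listed at 0 in 6 of the 16 libraries. In the other 10 it had 27 to 170 counts, and its highest level was 21.1 CPM. It was no member by the rule and was not compared between groups.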
